A study of Rattus norvegicus with 24 samples.

Results

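The endogenous opioid peptide precursor genes Penk (ENSRNOG00000008943), Pdyn (ENSRNOG00000026036) and Pomc (ENSRNOG00000012686) were chosen by gene ID and chromosome, and all 3 were found among the 32552 genes in each of the 24 libraries. RNA sequencing had been run on total RNA from tissue punches of the nucleus accumbens (NAc, inner diameter 2.16 mm) and the ventral tegmental area (VTA, 1.19 mm) of Sprague Dawley rats. The NAc groups were fentanyl females (n = 4), saline females (n = 3), fentanyl males (n = 4) and saline males (n = 3). The VTA groups were fentanyl females (n = 3), saline females (n = 2), fentanyl males (n = 3) and saline males (n = 2). Every rat was killed in place of a last choice session, and by its title the study concerns withdrawal and the choice of fentanyl, a synthetic agonist of the mu opioid receptor, over food. The sources used here give neither the fentanyl dose and duration nor the age of the rats. The code in each title was read as the rat, which gives 14 rats, 10 of them with a library from each region.

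Opioid peptides are cut from large precursor proteins by prohormone convertases inside secretory vesicles. Penk encodes proenkephalin, the source of Met- and Leu-enkephalin, which act mainly at delta and mu opioid receptors. Pdyn encodes prodynorphin, the source of the dynorphins, which act mainly at kappa receptors. Pomc encodes pro-opiomelanocortin, the source of beta-endorphin and also of ACTH and the melanocortins, and its main neurons in the brain lie in the arcuate hypothalamus. In the striatum, which includes the NAc, Penk is known as a product of spiny neurons with D2 dopamine receptors and Pdyn as a product of those with D1 receptors.

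The deposited values were raw counts per gene. Totals ran from 4493742 to 6300965 counts in VTA libraries and from 3460190 to 5011808 counts in NAc libraries. Mitochondrial features took 17.6% to 26.9% of counts in the VTA and 22.1% to 36.7% in the NAc. On the first principal component of its region, fentanyl female replicate 2 stood apart in the VTA (46.8, against -21.4 to 13.4 in the other libraries), and fentanyl female replicate 1 stood apart in the NAc (42.5, against -14.2 to 15.7). Levels are given as CPM (counts per 1000000 counts) after a single TMM scaling (trimmed mean of M values) over all 24 libraries, and the 3 genes are compared with each other only as CPM per kb of counted exon. The files pair no gene ID with a name and the reference table holds 0 Ensembl IDs, so opioid receptors, processing enzymes and markers of other cell types were not analysed here.

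On the coordinates of the files, for which the sources used here name no build, Penk lay on chromosome 5 from 17056419 to 17061837 on the minus strand, with 3 exon blocks and 1702 counted nt. Pdyn lay on chromosome 3 from 122194329 to 122206671 on the minus strand, with 4 exon blocks and 2439 nt. Pomc lay on chromosome 6 from 28382962 to 28388967 on the plus strand, with 3 exon blocks and 1117 nt. The chromosome of each matched that of the same symbol in RefSeq, and the span of Pdyn, 12343 nt, was the same there. The spans of the other genes differed, at 5419 nt against 5694 nt in RefSeq for Penk and 6006 nt against 6039 nt for Pomc. No annotated feature overlapped Pdyn or Pomc, and 1 feature lay inside Penk.

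The promoter windows of Pdyn and Pomc are printed as sequence, and no link between their letters and the regional levels was tested. They come from RefSeq (build GRCr8) and run from 250 bases before to 50 bases after the start used there, with chr3:137366454-137366753 on the minus strand for Pdyn and chr6:32659103-32659402 on the plus strand for Pomc. The table matched 2 of the 3 genes; Penk is named only. Capitals mark the TATA box letters TATAAA and the CCAAT box letters CCAAT, each searched on both strands.
Pdyn: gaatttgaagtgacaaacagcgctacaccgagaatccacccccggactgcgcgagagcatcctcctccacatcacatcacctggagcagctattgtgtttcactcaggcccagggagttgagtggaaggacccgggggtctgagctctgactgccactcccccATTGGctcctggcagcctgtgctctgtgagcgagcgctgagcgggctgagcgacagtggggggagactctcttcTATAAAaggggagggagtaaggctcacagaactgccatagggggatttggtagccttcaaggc
Pomc: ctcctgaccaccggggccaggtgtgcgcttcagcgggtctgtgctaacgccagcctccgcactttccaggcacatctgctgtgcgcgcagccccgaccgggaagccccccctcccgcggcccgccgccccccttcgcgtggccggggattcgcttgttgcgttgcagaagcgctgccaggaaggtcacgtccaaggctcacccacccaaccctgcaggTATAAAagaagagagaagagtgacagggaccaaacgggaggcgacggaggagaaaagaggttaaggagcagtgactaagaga
TATAAA began 13 bases before the start in Pdyn and 32 bases before it in Pomc, and 14.2% of the 33469 promoter windows in the table held it on either strand. CCAAT was found once, on the opposite strand of the Pdyn window, 87 bases before the start, and 37.5% of windows held it. TGACG, the core of the cAMP response element, was in neither window on either strand, while 21.2% of windows held it; the match or its absence describes these letters only.

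The first comparison set the VTA against the NAc within the 10 rats that gave both, and Penk and Pdyn were both far lower in the VTA. Penk was 38.8-fold lower (log2 fold change -5.28 ± 0.40, SE; adjusted p = 3.04e-05) and Pdyn was 54.9-fold lower (-5.78 ± 0.12; adjusted p = 7.83e-16) by edgeR's quasi-likelihood test with rat as a block and Benjamini-Hochberg adjustment over 14795 genes. Of all genes tested, 62.3% differed between the regions and 30.6% were lower in the VTA. Ordered from the most positive to the most negative log2 fold change, Penk ranked 14745 and Pdyn 14760 of the 14795. In bulk tissue, fewer cells of a type and less RNA per cell cannot be told apart.

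Penk ran from 4.26 to 28.9 CPM with a median of 7.33 over the 10 VTA libraries, against 244 to 622 CPM with a median of 335 over the 14 NAc libraries. Pdyn ran from 0.680 to 6.33 CPM with a median of 2.62 in the VTA, against 86.4 to 230.3 CPM with a median of 150.1 in the NAc. Neither gene had a VTA library within its NAc range, which was so for 11.4% of genes in the rats with both regions. Within a rat, the NAc level was 10.6 to 94.8 times the VTA level for Penk and 30.6 to 279 times for Pdyn. The lowest Penk ratio came from fentanyl female replicate 2, whose VTA library held 148 Penk counts against 26 to 72 in the other VTA libraries. A set of 573 genes whose NAc level exceeded the VTA level by 4-fold or more, with an adjusted p under 0.05 by edgeR, was summed in each VTA library. It was chosen in the other rats with both regions and without the opioid precursors. The sum in the VTA library of fentanyl female replicate 2 was 13.0% of the NAc mean, inside the 12.7% to 16.6% of the other VTA libraries. Its Penk level was 7.91% of the NAc mean against 1.16% to 3.85% in the others. The other libraries took part in choosing the set and this library did not. The cause of its Penk level was not tested.

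Pomc, the precursor of beta-endorphin, was near the floor in both regions and its regional difference pointed the other way. It summed to 49 counts over the 10 VTA libraries and 17 counts over the 14 NAc libraries, which is 0.896 CPM without TMM scaling (95% exact Poisson interval 0.663 to 1.19) against 0.295 (0.172 to 0.472). These intervals rest on counts summed over libraries, so they hold counting error alone and leave out the spread between rats. Reads copied by PCR do not stand for separate molecules, so the intervals can be too narrow even for counting error. In the VTA no library was at 0 and the counts ran from 1 to 12, and in the NAc 5 libraries were at 0 and none exceeded 4. Within the 10 rats Pomc averaged 0.852 ± 0.586 CPM in the VTA and 0.340 ± 0.304 CPM in the NAc (SD), and it was higher in the VTA in 7 of 10. The exact two-sided sign-flip permutation test over rats, added after the counts were seen, gave p = 0.0234, and 0.0156 to 0.0469 with 1 rat left out. The gene did not pass the filter on low counts, and without that filter edgeR gave 1.29 as the log2 fold change (adjusted p = 0.262).

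**Figure D1:**
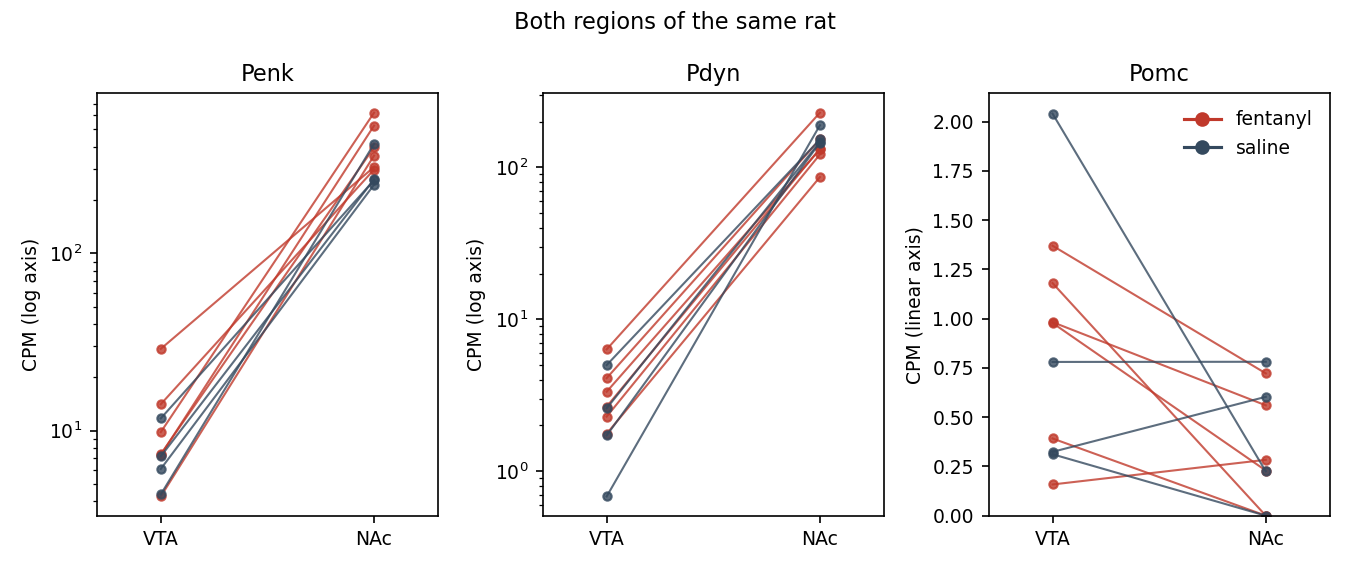
Level of Penk, Pdyn and Pomc in CPM in the VTA (left of each panel) and the NAc (right) of the 10 rats with both regions; each line is 1 rat, red for fentanyl and dark grey for saline, and the Pomc panel has a linear axis. Penk and Pdyn were lower in the VTA of all 10 rats, and Pomc was higher there in 7.

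Per kb of exon, Penk was the highest of the 3 in each region. In the VTA it averaged 5.94 ± 4.30 CPM per kb, Pdyn 1.25 ± 0.693 and Pomc 0.762 ± 0.525 (SD, n = 10). In the NAc Penk averaged 215 ± 64.4 CPM per kb, Pdyn 63.8 ± 16.0 and Pomc 0.276 ± 0.259 (SD, n = 14). Penk ranked 151 and Pdyn 819 among 24888 genes with a count in the NAc, and Penk ranked 8424 and Pdyn 14199 among 25332 in the VTA. Among the 8 groups, the mean Penk CPM was highest in NAc fentanyl females, followed by NAc fentanyl males, saline males and saline females, and each of these overlapped its neighbour in range. The mean Pdyn CPM was highest in NAc fentanyl males, then in saline females, saline males and fentanyl females, again with overlapping neighbours. In the VTA the Penk groups overlapped their neighbours too, and the Pdyn groups did so except for fentanyl females and saline females, whose nearest libraries stood at 1.76 and 1.72 CPM, on 9 and 11 counts. In 10.4% of genes the VTA fentanyl females lay above the saline females in this way.

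The second question was whether fentanyl rats differed from saline rats in the NAc, and Penk had higher levels in fentanyl females without passing the test. Penk stood at 622, 307, 356 and 406 CPM in fentanyl females, against 244, 259 and 282 CPM in saline females. All 4 fentanyl females lay above all 3 saline females, which was so for 11.6% of genes, and 23.1% of genes did not overlap in either direction. The fentanyl mean was 423 ± 139 CPM and the saline mean 262 ± 19.4 CPM (SD). The log2 fold change was 0.70 ± 0.24 (SE), or 1.62-fold, with an unadjusted p of 0.0146 and an adjusted p of 0.0802 by edgeR. In this comparison 13.5% of 13248 genes passed, 28.9% had an unadjusted p under 0.05, and 0 of the 2 opioid precursors tested passed. The highest library, at 622 CPM, was fentanyl replicate 1, which also stood apart on the first principal component, and without it the value was 0.45 (adjusted p = 0.146). The mitochondrial share was 29.2% to 36.7% with fentanyl and 22.1% to 26.1% with saline in these females, and its part in the Penk difference was not tested. With these features left out of the library sizes the Penk value was 0.69. That refit changes the scaling of libraries and not the Penk counts, so it cannot test the part of the share.

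Pdyn, the dynorphin precursor, had a lower mean in the same fentanyl females and did not pass. It stood at 122, 86.4, 153 and 167 CPM in fentanyl females, against 146, 189.5 and 155 CPM in saline females. The groups overlapped, since 2 of the 4 fentanyl females lay within the saline range. The means were 132 ± 35.8 CPM with fentanyl and 163 ± 23.1 CPM with saline (SD), which is a log2 fold change of -0.30 ± 0.24 (SE; adjusted p = 0.453 by edgeR). With 1 library left out the value was -0.43 to -0.14. It was -0.14 without fentanyl female replicate 2 and -0.18 without saline female replicate 2. In the other direction it was -0.43 without fentanyl female replicate 8 and -0.38 without fentanyl female replicate 7 or saline female replicate 1.

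In NAc males neither gene passed. Penk stood at 525, 396, 297 and 439 CPM in fentanyl males, against 262, 414 and 314 CPM in saline males, which gave 0.34 ± 0.24 on the log2 scale (SE; adjusted p = 0.878 by edgeR). Pdyn stood at 229, 133, 131 and 230.3 CPM in fentanyl males, against 153, 147 and 138 CPM in saline males, which gave 0.31 ± 0.25 (adjusted p = 0.895). Fentanyl and saline males overlapped for both genes. With 1 library left out the male values were 0.20 to 0.53 for Penk, lowest without fentanyl replicate 1 and highest without saline replicate 3, and 0.20 without saline replicate 1 as well. For Pdyn they were 0.18 to 0.44, lowest without fentanyl replicate 1 and also 0.18 without fentanyl replicate 7. For Pdyn, 2 fentanyl males lay above every saline male and the other 2 below every saline male. By edgeR 0 of 13248 genes passed in males, while an unadjusted p under 0.05 was reached by 851 of them (6.42%) and DESeq2 found 6.

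As a mean over both sexes, Penk was 0.52 ± 0.17 higher on the log2 scale, or 1.43-fold (unadjusted p = 0.0110, adjusted p = 0.0903), where 7.5% of genes passed and 24.5% had an unadjusted p under 0.05. With 1 library left out the value was 0.39 to 0.61, and it passed in 1 of the 14 such fits, the one without fentanyl male replicate 3 (0.58, adjusted p = 0.0471). For Pdyn the value was 0.01 ± 0.17 (adjusted p = 0.988). The fentanyl effect in females minus that in males was 0.36 ± 0.34 for Penk (adjusted p = 0.694) and -0.61 ± 0.35 for Pdyn (unadjusted p = 0.103, adjusted p = 0.473), where 0.755% of genes passed. The Penk value was 0.12 without fentanyl female replicate 1, 0.17 without saline male replicate 3 and 0.23 without fentanyl male replicate 3. Saline females minus saline males gave -0.33 ± 0.26 for Penk (adjusted p = 0.687) and 0.16 ± 0.26 for Pdyn (adjusted p = 0.882), where 0.377% of genes passed. These were -0.14 for Penk without saline male replicate 3 and 0.04 for Pdyn without saline female replicate 2. Pomc held 5 counts over the 4 fentanyl females, 7 over the 3 saline females, 3 over the 4 fentanyl males and 2 over the 3 saline males. Without the filter on low counts edgeR gave a Pomc log2 difference of -0.40 in females (adjusted p = 0.923) and 0.07 in males (adjusted p = 1.00).

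**Figure D2:**
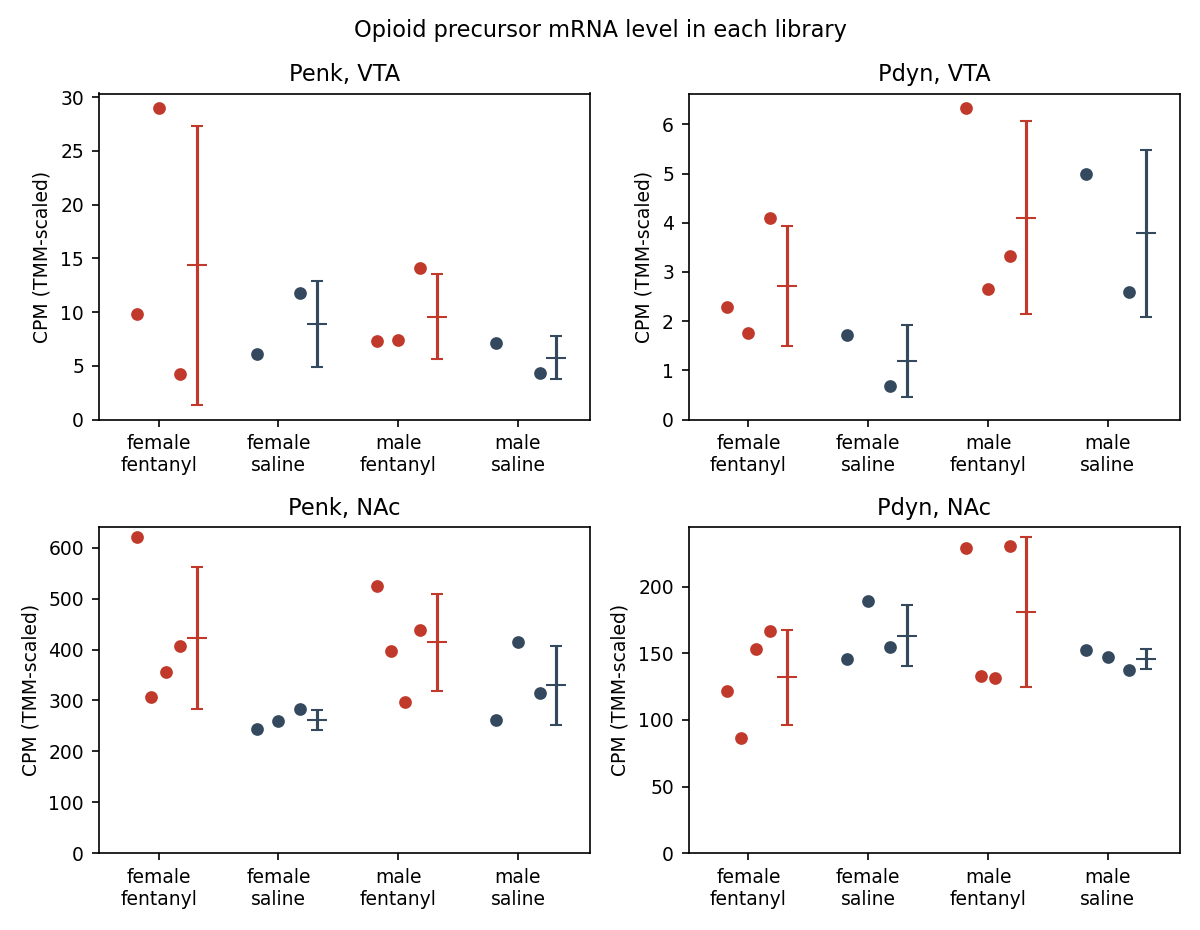
CPM of Penk (left) and Pdyn (right) in each VTA library (top) and NAc library (bottom) by sex and treatment; points are rats and the bar beside them is the mean ± SD. NAc fentanyl females lie at 307 to 622 CPM for Penk, above the 244 to 282 CPM of saline females, while the Pdyn groups overlap.

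**Figure D3:**
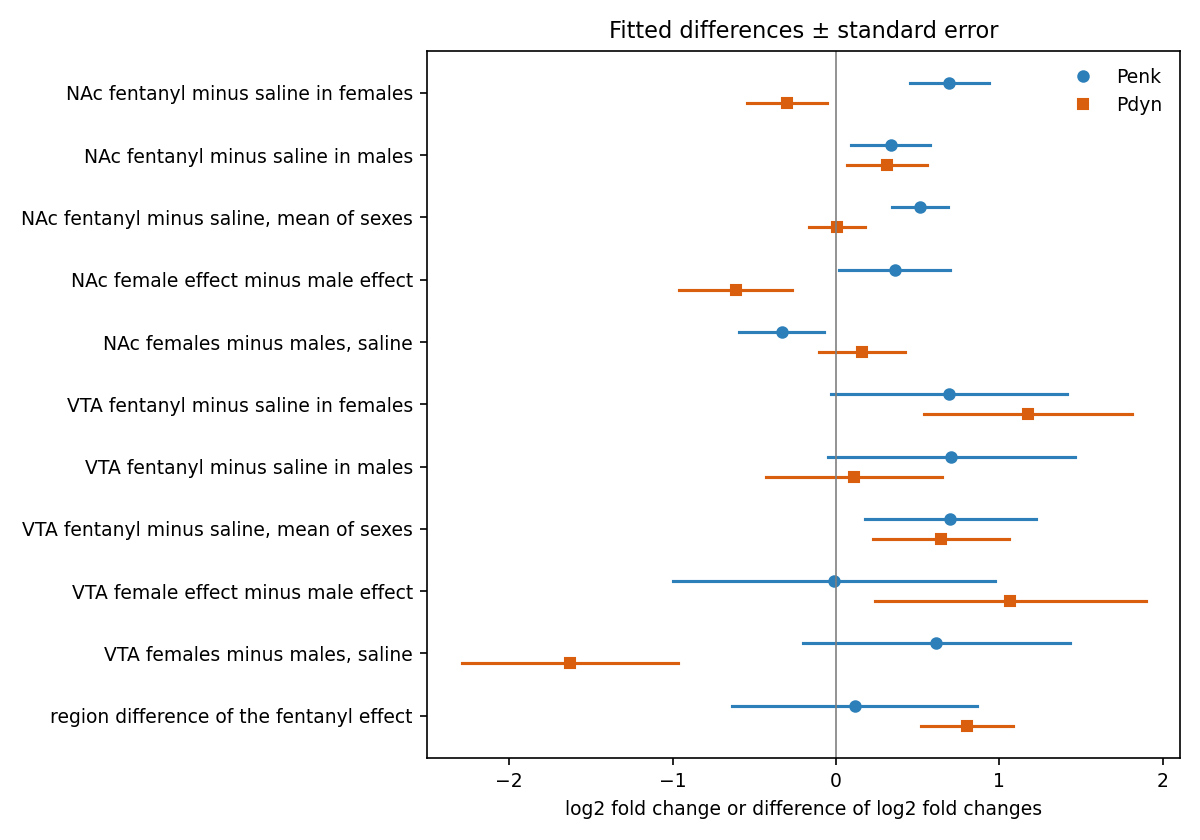
Fitted log2 fold change or difference of log2 fold changes of Penk (blue circles) and Pdyn (orange squares) in 11 comparisons, with bars of 1 SE on each side. None of these values passed an adjusted p of 0.05, and the widest bar is that of Penk for the VTA female effect minus male effect, at 0.98.

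The ratio of the 2 precursors within a library does not depend on how libraries are scaled. Counts per length of Penk over Pdyn were 7.32, 5.09, 3.33 and 3.49 in NAc fentanyl females, against 2.40, 1.96 and 2.62 in saline females. The ratios were 3.28, 4.28, 3.24 and 2.73 in fentanyl males, against 2.45, 4.03 and 3.27 in saline males. All fentanyl females lay above all saline females, while the male groups overlapped. Among the CPM of single genes, 11.6% separated upward and 23.1% in either direction between these female groups. The log2 ratio was 0.98 higher with fentanyl in females, or 1.98-fold (exact two-sided permutation p = 0.0571 over 35 regroupings, where 0.0286 is the smallest possible; adjusted over 3 comparisons 0.0857). The highest ratio, 7.32, came from fentanyl replicate 1, which stood apart on the first principal component and had the highest mitochondrial share, 36.7%. Without it the female difference was 0.76, or 1.69-fold (exact permutation p = 0.1, where 0.05 is the smallest possible). In males the difference was 0.07 (exact permutation p = 0.743) and as a mean over the sexes 0.53 (exact permutation p = 0.0457 over 1225 regroupings, adjusted 0.0857). The difference between the sexes, tested after the values were seen, was 0.91 (two-sided permutation of sex within treatment, p = 0.0286 over 1400 regroupings, not adjusted). That permutation is exact only if the sexes differ in neither treatment. The mean log2 ratio was 1.21 in saline females and 1.67 in saline males, and 2.19 in fentanyl females and 1.74 in fentanyl males. With 1 NAc library left out, the difference between the sexes was 0.69 to 1.10. Its p was under 0.05 in 5 of 14 such repeats and at most 0.07. No relation between the Penk and Pdyn levels was detected across NAc libraries: Pearson's r was 0.19 and Spearman's rho 0.10 over 14 libraries (permutation p = 0.504 and 0.738; adjusted 0.772 and 0.795 over 7 relations), and r was 0.23 without the 2 libraries farthest from the median. In NAc females r was -0.23 and rho -0.21 (n = 7; exact permutation p = 0.589 and 0.662), and r was -0.30 without the 2 farthest. In NAc males r was 0.68 and rho 0.57 (n = 7; exact permutation p = 0.111 and 0.2), and r was 0.77 without the 2 farthest. In the fentanyl libraries r was 0.43 and rho 0.40 (n = 8; exact permutation p = 0.292 and 0.327), and r was 0.90 without the 2 farthest. In the saline libraries r was -0.35 and rho -0.26 (n = 6; exact permutation p = 0.424 and 0.658), and r was 0.10 without the 2 farthest. The adjusted value was 0.772 for each r and rho of these 4 subsets.

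**Figure D4:**
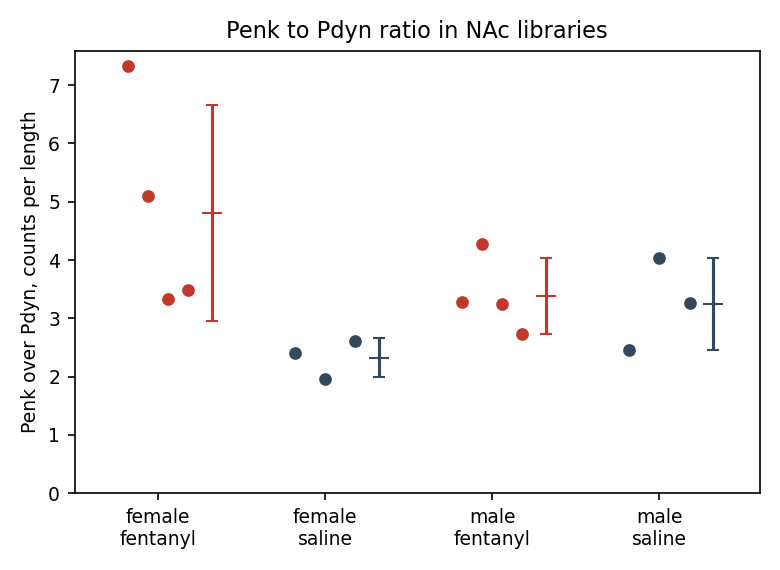
Ratio of Penk to Pdyn counts per length in the 14 NAc libraries by sex and treatment; points are rats and bars the mean ± SD. Fentanyl females lie at 3.33 to 7.32 and saline females at 1.96 to 2.62.

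In the VTA the counts of both genes were low and no fentanyl difference passed. The mitochondrial share was 21.4% to 26.9% in fentanyl females, against 19.4% to 21.0% in saline females. It was 21.3% to 25.4% in fentanyl males, against 17.6% to 18.4% in saline males. Its part in the Penk and Pdyn values was not tested. Penk stood at 9.82, 28.9 and 4.26 CPM in fentanyl females, against 6.08 and 11.7 CPM in saline females, and at 7.28, 7.38 and 14.1 CPM in fentanyl males, against 7.17 and 4.37 CPM in saline males. All 3 fentanyl males lay above both saline males, which was so for 11.6% of genes, and the female groups overlapped. The log2 fold change of Penk was 0.69 ± 0.72 in females, 0.71 ± 0.76 in males and 0.70 ± 0.52 as their mean (adjusted p = 0.853, 0.962 and 0.701 by edgeR). Without fentanyl female replicate 2, the library that stood apart, the values were -0.36 in females and 0.17 as the mean. In males the value was 0.35 without fentanyl replicate 3, 0.40 without saline replicate 3 and 1.10 without saline replicate 1.

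Pdyn in the VTA stood at 2.28, 1.76 and 4.09 CPM in fentanyl females, against 1.72 and 0.680 CPM in saline females, and at 6.33, 2.66 and 3.33 CPM in fentanyl males, against 4.99 and 2.59 CPM in saline males. The 3 fentanyl females lay above both saline females, which was so for 10.4% of genes, and the male groups overlapped. Its log2 fold change was 1.18 ± 0.64 in females, 0.11 ± 0.54 in males and 0.64 ± 0.42 as their mean (adjusted p = 0.701, 0.989 and 0.641). The female value was 0.73 without fentanyl replicate 7, 0.67 without saline replicate 2 and 2.00 without saline replicate 1, and the saline females rest on 4 and 11 counts. The mean was 0.39 to 1.05 with 1 library left out, lowest without saline female replicate 2 and highest without saline female replicate 1. By edgeR 0 of 14400 genes passed in VTA females, in males or as their mean, with 1098 (7.62%), 648 (4.5%) and 1271 (8.83%) at an unadjusted p under 0.05 and 37, 7 and 39 by DESeq2. The fentanyl effect in females minus that in males was -0.01 ± 0.98 for Penk and 1.07 ± 0.83 for Pdyn (adjusted p = 1.00 for both), where edgeR passed 0 genes, 476 (3.31%) were at an unadjusted p under 0.05 and DESeq2 found 1. For saline females minus saline males Penk gave 0.62 ± 0.82 (adjusted p = 1.00) and Pdyn -1.63 ± 0.66 (unadjusted p = 0.0281, adjusted p = 1.00), where 2.41% of genes had an unadjusted p under 0.05 and 0.0556% passed. The Pomc counts were 6, 5 and 6 for fentanyl females, against 5 and 12 for saline females, and 1, 8 and 2 for fentanyl males, against 2 and 2 for saline males.

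The VTA effect of fentanyl minus the NAc effect, within rats, was 0.80 ± 0.28 for Pdyn (unadjusted p = 0.0111, adjusted p = 0.781) and 0.12 ± 0.75 for Penk (adjusted p = 0.997). The Pdyn value was 0.44 without saline female replicate 2 and 1.29 without saline female replicate 1. By edgeR 0 of 14795 genes passed this test, while 842 (5.69%) were at an unadjusted p under 0.05 and DESeq2 found 1. Across the 10 rats no relation between the VTA and NAc levels of a gene was detected: Pearson's r was -0.18 for Penk and 0.26 for Pdyn, and Spearman's rho -0.08 and 0.36 (permutation p = 0.620 and 0.475 for r, 0.837 and 0.313 for rho; adjusted 0.772 and 0.772 for r, 0.837 and 0.772 for rho). Without the 2 rats farthest from the median NAc level r was -0.33 for Penk and -0.48 for Pdyn.

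The feature inside Penk, ENSRNOG00000036484, is a single block of 78 nt on the same strand (chromosome 5, 17059689 to 17059766), in the intron between the exon blocks that end at 17057402 and start at 17060896. Its reads and those of unspliced Penk RNA cannot be told apart, and its values were seen before it was chosen. Its counts were 8, 7, 5 and 9 in NAc fentanyl females, against 17, 14 and 22 in saline females, and 13, 5, 4 and 9 in fentanyl males, against 11, 9 and 15 in saline males. Per 1000 Penk counts the mean was 4.87 ± 0.760 in fentanyl females against 13.7 ± 1.55 in saline females, and 4.75 ± 1.77 in fentanyl males and 10.2 ± 3.13 in saline males (SD). The female groups did not overlap, as was so for the CPM of 23.1% of genes, and in males 1 fentanyl library, at 7.01, lay above the lowest saline library at 6.55. With 0.5 counts added to both, the log2 ratio was 1.44 lower with fentanyl in females (difference -1.44, exact two-sided permutation p = 0.0286, the smallest that 35 regroupings can give). It differed by -1.07 in males (exact permutation p = 0.0857) and by -1.25 as a mean over the sexes (exact permutation p = 0.00163 over 1225 regroupings, and 0.00143 to 0.00429 with 1 library left out). These p-values were not adjusted for the choice of the feature. The share of other features with such a ratio difference was not computed. Penk, the denominator, was itself 0.52 higher on the log2 scale as a mean over the sexes. By edgeR the feature alone gave -0.82 ± 0.41 on the log2 scale in females (adjusted p = 0.191), -0.64 ± 0.43 in males (adjusted p = 0.854) and -0.73 ± 0.30 as a mean over the sexes (adjusted p = 0.134). That mean had an unadjusted p of 0.0229 by edgeR, and 24.5% of genes had one under 0.05.

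**Figure D5:**
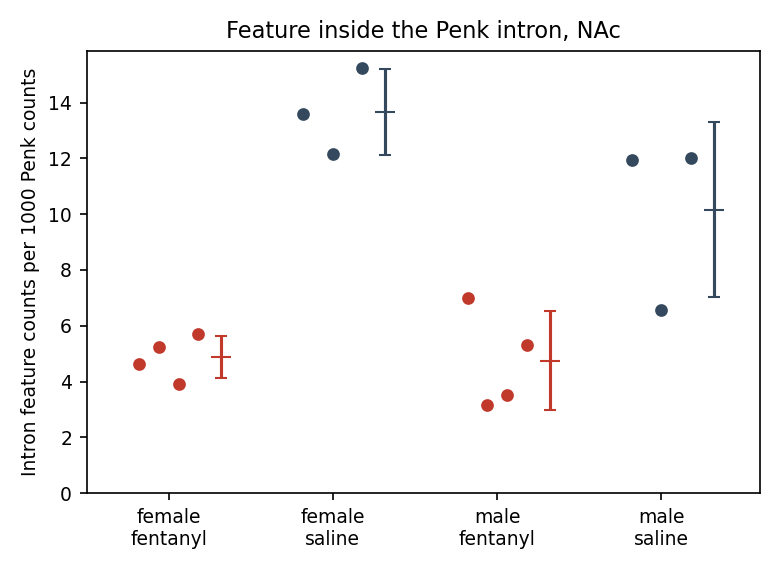
Counts of the 78 nt feature inside the Penk intron per 1000 Penk counts in the 14 NAc libraries; points are rats and bars the mean ± SD. Fentanyl libraries lie at 3.18 to 7.01 and saline libraries at 6.55 to 15.2.

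Levels of other genes were set beside those of Penk and Pdyn over the 14 NAc libraries. Among the 8695 genes that averaged 10 CPM or more there, the highest Pearson's r of log2 CPM with Penk was 0.91 for ENSRNOG00000005730 (chromosome 5, 12132657 to 12199283), followed by 0.90 for ENSRNOG00000009054 (chromosome 8, 58486078 to 58542844). With Pdyn it was 0.94 for ENSRNOG00000012061 (chromosome 1, 192233910 to 192574831), followed by 0.89 for ENSRNOG00000027245 (chromosome 16, 80729400 to 80755415). After the mean of each group was removed, r was 0.87 and 0.87 for the Penk pair and 0.95 and 0.88 for the Pdyn pair. These are the highest of many values, the points share library depth and scaling, and no p is given.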

How the data were processed

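The authors deposited raw counts per Ensembl gene, 1 table per library. The tools listed, per the submitters' processing notes, are STAR 2.5.2b, Trimmomatic 0.36, Subread 1.5.2, featureCounts and DESeq2, given without their roles. Genome build, annotation, strand setting and the handling of multi-mapped reads: not given in the sources used here. Libraries had ribosomal RNA depleted, per the labels' protocols. Groups and rat codes came from the titles. No 2 of the 26 pairs of libraries within a group were copies (chi-square per degree of freedom 2.91 or more).

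Tests used edgeR 4.0.16 in R 4.3.3: TMM, filterByExpr with a minimum count of 10, robust quasi-likelihood fits and two-sided F tests, adjusted by Benjamini-Hochberg over all genes tested; a gene passed at an adjusted p under 0.05. Standard errors were derived from the F statistic. Each region was fitted with its 4 groups, and the regions within rats with rat as a block. Principal components used 2000 genes, and log2 CPM had 2 as its prior count. Alternatives included DESeq2 1.42.0. Only the edgeR fits of fentanyl against saline females in each region and of the VTA against the NAc were tried on simulated counts. The permutation tests were not.

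Named genes were the 3 precursors and the feature inside Penk, chosen after its values were seen. The rule on the 5 genes most like a precursor named only genes with a symbol; since no ID had one, the first 2 for Penk and for Pdyn in the NAc are given by ID, as an exception to that rule. The 18 gene lists and the ratios to marker genes could not be matched to IDs and were not analysed here. The members and lists were chosen with earlier results of these data known.

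Replicate numbers within a region were not treated as pairs; rats were paired across regions by their code, and residuals of both libraries of a rat correlated at 0.0358 on average over 10 rats.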

Additional observations from a re-analysis of the deposited data

Results flagged for a closer look

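In 24 groups of samples, each gene or ratio was searched for a library far from the others by Dixon's test, which by chance picks about 1 group in 20, and 3 were found. Pdyn in the 6 NAc saline libraries of both sexes had its highest level, 189.5 CPM, in female replicate 2, with the next at 155 CPM. The Penk to Pdyn ratio per length in the VTA fentanyl libraries had its highest value, 23.6, in female replicate 2, with the next at 6.16. The same ratio in the VTA saline libraries had its highest value, 24.7, in female replicate 2, with the next at 5.08, and that library held 4 Pdyn counts.

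The fentanyl difference of the NAc log2 ratio of Penk to Pdyn was 0.91 larger in females than in males. The permutation of sex within treatment gave p = 0.0286, not adjusted and tested after the values were seen. It is exact only if the sexes differ in neither treatment.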

How the results depend on the processing

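Of 29 results, 20 kept their direction and their side of the threshold under every alternative run; of 468 alternative values, 433 did so, 24 changed direction, 9 lost their call and 2 gained one. Both regional differences, of Penk and of Pdyn, were among those kept. Some alternatives left out a library outside the groups compared, which can hardly move a value. A result that had not passed also keeps its side easily. Penk in NAc females did so in 20 of 20, while its value ran from 0.45 to 0.82 (adjusted p = 0.0542 to 0.247 by edgeR). Without the filter on low counts the Pdyn value in the NAc as a mean over the sexes was -0.0029. With the replicate block it was -0.28, Pdyn in NAc females was -0.69 (adjusted p = 0.0443 by edgeR), and the VTA female minus male effect of Penk was 0.58. The block joined the same number across both sexes. In the NAc, numbers 7 and 8 occurred only with fentanyl and number 4 only with saline. Those libraries had no counterpart of the other treatment, so the block overlapped in part with treatment. The replicate numbers were not taken as pairs, but 4 same-numbered pairs per region are too few to settle this. Residuals from the group means correlated at -0.0205 to 0.0215 in the NAc between same-numbered libraries of 1 sex, and at -0.0144 to 0.194 in the VTA (mean 0.0969). The 2 residuals of a VTA saline group mirror each other, so its pairs are not independent. Residuals of the 2 libraries of a rat correlated at -0.0293 to 0.129 (mean 0.0358). The block moved the NAc calls as a mean over the sexes to 339 genes, against 993 without it, those for the sex difference of the effect to 237, against 100, and those for saline sexes to 13, against 50; it changed no other call among the precursors. DESeq2 called 256 genes for the sex difference of the effect and 120 for saline sexes in the NAc.

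With 1 library or rat left out, the ranges were -0.0611 to 0.0871 for Pdyn in the NAc as a mean over the sexes, 0.39 to 0.61 for Penk in that comparison, -0.36 to 1.23 for Penk in VTA females, and -0.36 to 0.65 for Pdyn in VTA males. They were -1.07 to 0.52 for the VTA female minus male effect of Penk, -0.45 to 0.45 for the region difference of its fentanyl effect, -0.12 to 0.24 for the Penk to Pdyn ratio in NAc males, and 0.69 to 1.10 for the female minus male effect on that ratio. The cause of these changes was not tested.

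Counts of genes that passed ranged over the alternatives from 770 to 2072 in NAc females, 0 to 46 in NAc males, 315 to 1344 as their mean, 20 to 388 for the sex difference of the effect and 10 to 218 for saline sexes. In the VTA they ranged from 0 to 418 in females, 0 to 114 in males, 0 to 499 as their mean, 0 to 109 for the sex difference of the effect and 8 to 115 for saline sexes. Each upper end came from the fit without the filter on low counts, except that for saline sexes in the NAc. DESeq2, with the filter, gave 37, 7, 39, 1 and 9 genes for these VTA comparisons. Low counts limit Pomc in both regions and Pdyn in the VTA, where saline females held 4 and 11 Pdyn counts and fentanyl females 9 to 25.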
